A study of Mus musculus with 20 samples.

Results

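Mouse colon organoids that carry activated BrafV600E and had been selected for growth without niche factors were compared with unselected BrafV600E organoids while both were kept in the same rich medium. The comparison rests on 6 of the 20 arrays of the study, 3 of selected and 3 of unselected organoids, chosen by their titles. Per the labels, organoids were grown in Matrigel from the proximal colon crypts of male mice about 40 days old that were heterozygous for a Cre-activable BrafV600E allele (Braf+/LSL), and Cre was delivered by lentivirus. The unselected organoids (BRAF) are described by the study's design text as profiled 5 months after induction of the oncogene. The selected organoids (selected) were grown in base medium, which lacks the niche factors, and for how long was not given in the sources used here. Each type had lines 1 to 3, and line numbers are shared between the types. All 6 cultures then spent 48 h in the medium that the labels call ENSW, and the growth medium in the labels' protocol held EGF and Noggin, R-spondin and Wnt3a conditioned media. Empty vector organoids (EV), from the same Braf+/LSL background with the lentiviral backbone alone, are given beside some values. Each array holds the total RNA of a whole organoid culture.

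Colon crypts are renewed by stem cells that depend on Wnt, R-spondin, EGF and BMP inhibition from their surroundings. Their progeny become absorptive colonocytes, with a brush border and enzymes that handle steroids, bile acids and drugs, or secretory cells such as goblet cells, which make mucus and trefoil peptides. Transcription factors such as HNF4A and CDX2 and nuclear receptors such as LRH-1 and FXR maintain these programs. BRAF is a kinase of the MAPK pathway, and the V600E change makes it active without an upstream signal.

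Levels are the log2 of the background-subtracted signal minus the 75th percentile of the array, and differences are selected minus BRAF on that log2 scale with the standard error (SE) of the fit. Calls rest on limma's p after Benjamini-Hochberg adjustment over all 21423 genes tested, with a threshold of 0.05. The probe for Braf, the gene with the activable allele, read -2.28, -1.66 and -2.13 in selected lines 1 to 3 and -2.11, -2.49 and -2.21 in BRAF lines 1 to 3. The groups overlapped, and the difference of 0.24 ± 0.24 was not called (adjusted p = 0.80). In EV organoids it read -3.21, -3.37 and -3.34, below all BRAF and selected arrays. The level is that of total Braf RNA and does not show which allele was active.

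In ENSW medium 127 genes were called, 0.593% of those tested, 97 lower (0.453%) and 30 higher (0.14%) in selected organoids. At an unadjusted p under 0.05 there were 2292 genes. The median difference over all genes was 0.0017. Of the called genes that were lower, 70 differed by more than 4-fold and 29 by more than 16-fold, and their median difference was -3.12. The called genes that were higher had a median difference of 1.46, and 11 of them passed 4-fold. All 127 called genes had selected and BRAF values that did not overlap, which held for 16.6% of all genes, and the choice of called genes favours this. With line as a block, which the shared line numbers allow, 245 genes were called, 82 higher and 163 lower, and 125 of the 127 were among them. Same-numbered selected and BRAF arrays deviated together only weakly (r = 0.164 to 0.212), and this fit counts the 2 arrays of a culture as independent. When only the 6 arrays were fitted with that block, 0 genes were called. Genes given below as called only with line as a block are therefore not counted as calls.

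**Figure D1:**
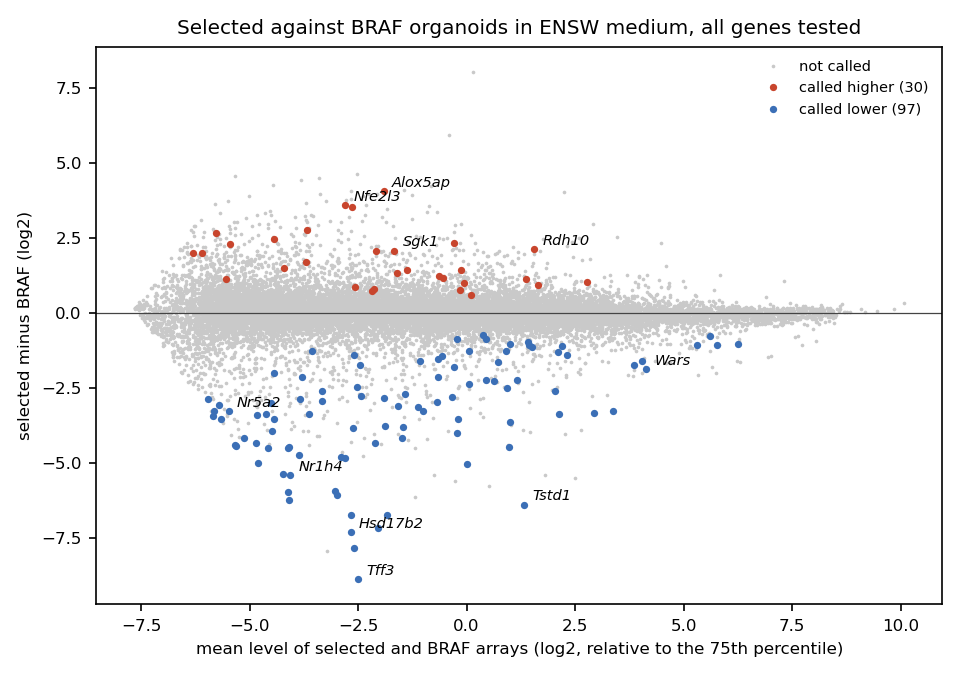
Each point is 1 of 21423 genes, with the mean level over the 3 selected and 3 BRAF arrays on the x axis and selected minus BRAF on the y axis, both in log2 units. The 97 genes called lower (blue) reach -8.87 for Tff3, and the 30 called higher (red) reach 4.04 for Alox5ap.

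The promoters of 2 of the called genes that were lower, Mettl7b and Slc35d1, hold the core motif of HNF4A and are shown first. Hnf4a itself was not called without the line block, and a link between it and these 2 genes was not tested. They were chosen after the values were seen. Capitals mark CAAAGTCC, searched on both strands in the 250 bases before the RefSeq gene start (GRCm38.p6, written 5′ to 3′ along the gene's strand).
Mettl7b promoter, chr10:128960989-128961238, minus strand: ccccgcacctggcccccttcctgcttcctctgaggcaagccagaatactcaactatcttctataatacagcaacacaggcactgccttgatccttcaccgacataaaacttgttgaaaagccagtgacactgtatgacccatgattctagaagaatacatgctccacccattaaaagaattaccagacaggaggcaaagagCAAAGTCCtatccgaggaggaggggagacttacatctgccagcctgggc
Slc35d1 promoter, chr4:103215177-103215426, minus strand: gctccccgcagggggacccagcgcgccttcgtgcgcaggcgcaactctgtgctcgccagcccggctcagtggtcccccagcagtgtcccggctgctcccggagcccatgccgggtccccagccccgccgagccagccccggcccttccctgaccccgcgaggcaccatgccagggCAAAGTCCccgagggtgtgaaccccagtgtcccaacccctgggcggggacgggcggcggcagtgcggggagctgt

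Mettl7b encodes a methyltransferase-like protein, and it read -5.99, -4.74 and -5.18 in selected and -0.05, -0.00 and -1.40 in BRAF lines 1 to 3. The groups did not overlap, and Mettl7b fell by 4.82 ± 0.51 (adjusted p = 0.000327). Slc35d1, a nucleotide-sugar transporter, fell by 1.26 ± 0.25 (adjusted p = 0.0345), a call that ended when any of 5 of the 6 arrays was left out (highest adjusted p 0.142, with BRAF line 2 out). Of the 85 genes with a symbol that were called lower, 67 matched a RefSeq promoter, and CAAAGTCC was in 2 of them (2.99%), against 198 of 12572 tested genes (1.57%). CAAGGTCA, a motif of LRH-1, was in 1 of 67 (1.49%) against 1.3%. Among 20 called higher genes with a promoter, 0 held CAAAGTCC and 1, Sgk1, held CAAGGTCA (5.0%). The windows of the lower genes held a median of 7.0 CpG pairs, against 14.0 over all tested genes. These are matches of letters, not sites, and were not tested.

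Among intestinal transcription factors, 2 of the 19 measured genes of the list were called lower, against 0.453% of all genes tested, and none was called higher. This list, like the others below, was chosen with earlier results of these data known. The list median was -0.26, and 13 differences were negative.

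Nr5a2, which encodes LRH-1, a nuclear receptor of crypt and liver cells, read -7.43, -6.50 and -7.43 in selected lines 1 to 3, not well above background on any of them. In BRAF lines 1 to 3 it read -4.24, -3.67 and -3.61. The groups did not overlap and the level was at least 2.80-fold lower in selected organoids (-3.28 ± 0.44, adjusted p = 0.00247). A second Nr5a2 probe gave 0.13, and with the authors' deposited values the difference was -0.94 (adjusted p = 0.165), so this call depends on probe and background treatment.

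Hnf4a, a nuclear receptor that maintains absorptive cells, was lower in all 3 lines (0.36, 3.07 and 2.16 in selected lines 1 to 3, against 4.76, 4.08 and 4.96 in BRAF lines 1 to 3). Its difference of -2.74 ± 0.63 had an adjusted p of 0.0744, and of 0.0421 with line as a block. Cdx2, the homeodomain factor that specifies intestine, differed by -0.14 ± 0.25 (adjusted p = 0.918) and lay between 3.89 and 4.93 on all 6 arrays. Cdx1 lay between -4.63 and 2.07 in BRAF organoids, and its difference of -4.32 ± 1.91 was not called (adjusted p = 0.431).

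**Figure D2:**
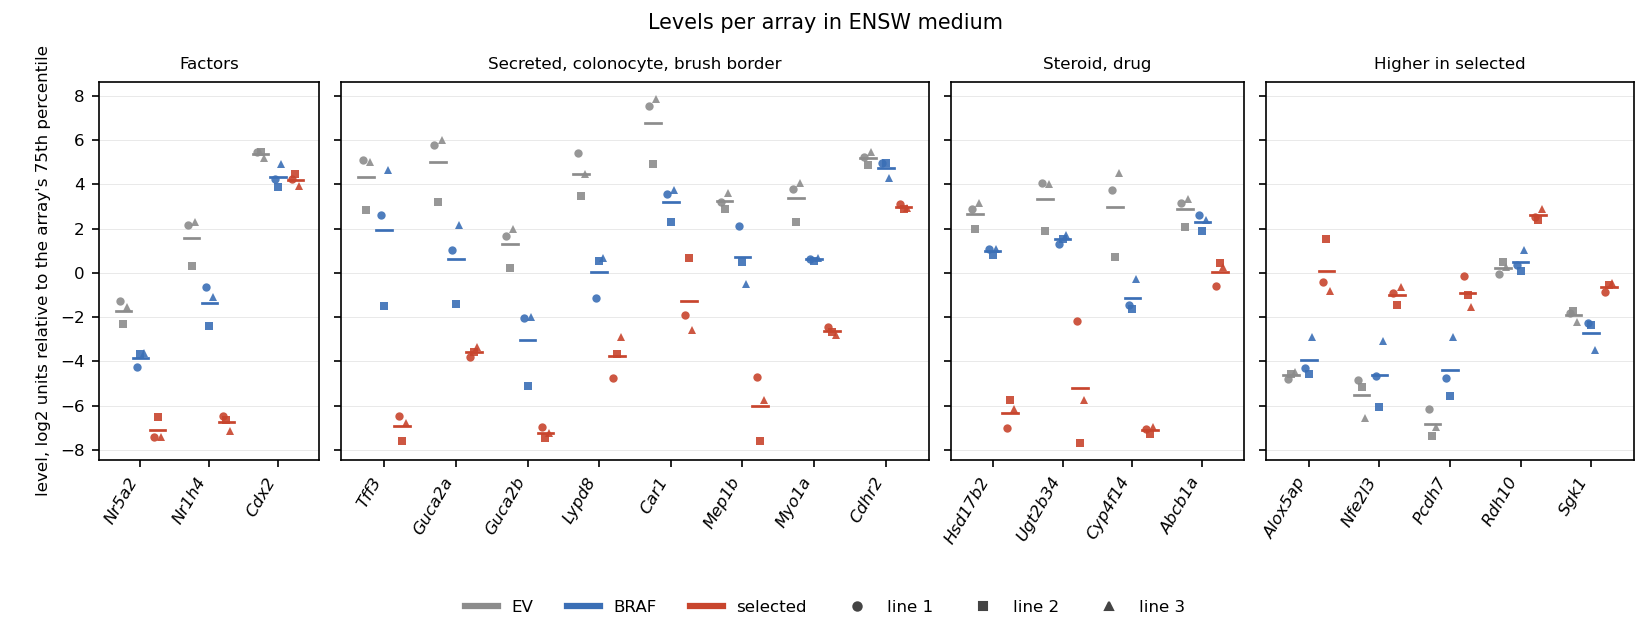
Levels of 20 genes on each array in ENSW medium, in log2 units relative to the array's 75th percentile, for EV (grey), BRAF (blue) and selected (red) organoids, with lines 1 to 3 as circles, squares and triangles and a bar at each group's mean. Selected and BRAF points do not overlap for any gene shown other than Cdx2.

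Most markers of differentiated colonocytes were lower in selected organoids. Of 22 measured genes of the list 5 were called lower, against 0.453% of all genes tested, and none was called higher. Of the 22 differences 20 were negative, and the median was -1.37. In such bulk samples fewer cells of a type and less RNA per cell cannot be told apart. Guca2a and Guca2b encode guanylin and uroguanylin, the peptides that activate the gut's guanylate cyclase receptor. Guca2a read -3.79, -3.57 and -3.34 in selected lines 1 to 3 and 1.03, -1.40 and 2.19 in BRAF lines 1 to 3. The selected values lay close together and below the widely spread BRAF values, and Guca2a fell by 4.17 ± 0.81 (adjusted p = 0.0336). Guca2b was not well above background in selected organoids and was at least 4.83-fold lower (adjusted p = 0.0256). Both calls were lost without any 1 array other than BRAF line 2 (adjusted p up to 0.132 and 0.113).

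Car1, a carbonic anhydrase of colonic surface cells, read -1.91, 0.67 and -2.57 in selected lines 1 to 3 and 3.59, 2.29 and 3.76 in BRAF lines 1 to 3. Line 2 was the highest of the selected and the lowest of the BRAF lines, and the groups did not overlap. Car1 fell by 4.48 ± 0.91 (adjusted p = 0.04), and it stayed called only when the array left out was selected line 2 (otherwise up to 0.163). Lypd8, a glycoprotein that keeps flagellated bacteria from the colonic surface, fell by 3.79 ± 0.71 (adjusted p = 0.0272). That call ended when selected line 1 or 2, or BRAF line 2 or 3, was left out (adjusted p up to 0.109), and within the slide that held selected line 3 and BRAF line 1 the difference was -1.77. Krt20, a keratin of mature surface cells, had a difference of -4.03 ± 1.17 that was not called (adjusted p = 0.184), although its values did not overlap. Car4 and Vil1 differed by -0.07 and -0.18, and neither was called (adjusted p = 0.967 and 0.939).

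Some brush border genes were also called lower. Cdhr2, a protocadherin that links the tips of microvilli, read 3.12, 2.91 and 2.95 in selected lines 1 to 3 and 4.97, 4.96 and 4.30 in BRAF lines 1 to 3. It fell by 1.75 ± 0.32 (adjusted p = 0.0256), and leaving out any array but BRAF line 3 ended the call (up to 0.111). Mep1b, the meprin beta protease of the brush border, read -4.73, -7.59 and -5.75 in selected and 2.12, 0.49 and -0.49 in BRAF lines 1 to 3, a fall of 6.73 ± 0.76 (adjusted p = 0.000602). Myo1a, the motor that ties the actin core to the membrane, fell by 3.28 ± 0.55 (adjusted p = 0.0139), and Calml4, a light chain of the same tip-link complex as Cdhr2, by 1.60 ± 0.27 (adjusted p = 0.0155). Each of these calls but that of Mep1b was lost without some 1 array (Myo1a up to 0.0683, without selected line 3, and Calml4 up to 0.0748, without BRAF line 1). In a set of 12 brush border genes put together after the values were seen, 3 were called lower, against 0.453% of all genes tested. Of the 12, 11 were negative (median -1.14). Vil1, Eps8, Myo7b and Ezr lay between -0.18 and -0.53, and Espn, an actin bundler, was at 2.27 ± 1.98, none of them called. Ush1c (-2.26, adjusted p = 0.144) and Anks4b (-2.75, adjusted p = 0.118), scaffolds of the tip-link complex, were called only with line as a block (adjusted p = 0.0364 and 0.0421).

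Goblet cell genes were spread more widely among the lines. Of 14 measured markers 1 was called lower, against 0.453% of all genes tested. All 14 differences were negative and the median was -2.61. Tff3, the trefoil peptide that goblet cells secrete with mucus, read -6.46, -7.58 and -6.78 in selected lines 1 to 3, not well above background on any of them. In BRAF lines 1 to 3 it read 2.62, -1.49 and 4.65, and BRAF line 2 was the lowest of these without reaching the selected values. Tff3 was at least 153-fold lower in selected organoids (-8.87 ± 1.23, adjusted p = 0.00316), the largest difference of all called genes in this fit, although with normexp it was -4.63 (adjusted p = 0.0654). Its probe lies at chromosome 17, 31262279 to 31262338 (mm9).

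Muc2, the main mucin of the colon, read -7.34, -6.63 and -1.59 in selected and 0.65, -4.96 and 2.68 in BRAF lines 1 to 3. The groups overlapped, and the difference of -4.64 ± 1.98 was not called (adjusted p = 0.414). With line as a block Clca1, a secreted goblet cell protein, was called as well (-2.96 ± 0.60, adjusted p = 0.04). Spdef, a factor of secretory maturation, also overlapped (-2.45 ± 1.77, adjusted p = 0.702). The summed level of the 14 goblet markers (log2) ran from 2.81 to 5.37 in selected and from 3.93 to 7.42 in BRAF organoids. For 16 enteroendocrine markers it ran from -1.27 to -1.17 in selected and from -0.94 to 3.33 in BRAF organoids, and 10 of the 16 were not well above background on any selected array. Chgb, a granin of hormone vesicles, read -7.07, -7.35 and -7.13 in selected against 2.81, -3.43 and 2.89 in BRAF lines 1 to 3. Its difference of -7.94 ± 1.84 had an adjusted p of 0.0782, and of 0.00859 with line as a block.

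Some genes of steroid and drug handling were called lower, and the smallest adjusted p of the comparison belonged to Hsd17b2. Hsd17b2, the enzyme that oxidises estradiol and testosterone to weaker steroids, read -7.03, -5.76 and -6.18 in selected lines 1 to 3 and 1.07, 0.81 and 1.06 in BRAF lines 1 to 3. The BRAF lines lay close together, and no selected array was well above background. Hsd17b2 was at least 79.2-fold lower (-7.30 ± 0.32, adjusted p = 4.37e-08), and it stayed called without any 1 array (up to 1.22e-06) and with the authors' deposited values (-4.38). Of 24 measured genes of xenobiotic metabolism, 3 were called lower, against 0.453% of all genes tested, and none higher, with a median of -2.25. Ugt2b34, a glucuronosyltransferase, read -2.19, -7.68 and -5.75 in selected and 1.31, 1.55 and 1.70 in BRAF lines 1 to 3. It fell by 6.73 ± 1.20 (adjusted p = 0.0212), and it was well above background on 1 of 3 selected arrays. That call was lost without any 1 array other than selected line 1 (up to 0.0935).

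Cyp4f14, a cytochrome that degrades leukotriene B4, was not well above background in selected organoids and was at least 18.5-fold lower (-5.98 ± 0.83, adjusted p = 0.00316). With normexp and with the authors' deposited values it was not called (adjusted p = 0.482 and 0.153). Abcb1a, the P-glycoprotein pump, fell by 2.25 ± 0.40 (adjusted p = 0.0207), and the call ended when line 1 or 3 of either type was left out (adjusted p up to 0.097). Probes of Ugt2b34, Cyp4f14 and Saa2 belong to families of close copies and may read more than 1 of them. Nr1h4, which encodes the bile acid receptor FXR, read -6.47, -6.65 and -7.17 in selected and -0.63, -2.40 and -1.07 in BRAF lines 1 to 3. It was at least 15.6-fold lower (-5.40 ± 0.62, adjusted p = 0.000652). With normexp the Nr1h4 difference was -1.79 and not called (adjusted p = 0.066). With the authors' deposited values it was -2.56 and stayed called (adjusted p = 0.0201), so the bound holds only for the processing used here. Nr1h4 was named after its values were seen, as were Hnf4a, Slc35d1, Cdx1, Car4, Vil1, Myo1a, Calml4, Ush1c, Anks4b, Spdef, Chgb, Hmgcs1, Cyp51, Soat2, Abcb4, C4bp, Il22ra1, Pou2f3, Trpm5, Alox5, Dclk1, Dusp4, Hoxd8, Clca1, H2-DMb1 and the synthetases.

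Sterol genes were lower by smaller amounts. In the list of 21 cholesterol genes, 20 differences were negative, 15 were negative at an unadjusted p under 0.05, and the median was -0.66, while 1 gene was called. Hmgcs1, the cytosolic HMG-CoA synthase, had a difference of -1.03 (adjusted p = 0.087), and Cyp51, lanosterol demethylase, one of -1.27 (adjusted p = 0.084). Soat2, which esterifies cholesterol for lipoproteins, fell by 2.59 ± 0.52 (adjusted p = 0.0374), and Abcb4, a phospholipid exporter, by 2.27 ± 0.44 (adjusted p = 0.0343). These calls were lost without some 1 array, Soat2 up to 0.135 without selected line 1 and Abcb4 up to 0.135 without BRAF line 1. A set of bile acid, sterol and phospholipid genes was put together after the values were seen. Of its 14 measured genes 4 were called lower, against 0.453% of all genes tested, and 11 were negative (median -0.74). Its bile acid genes Fgf15, Slc10a2, Slc51a, Slc51b, Gpbar1 and Fabp6 lay between -1.88 and 0.38, none called.

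**Figure D3:**
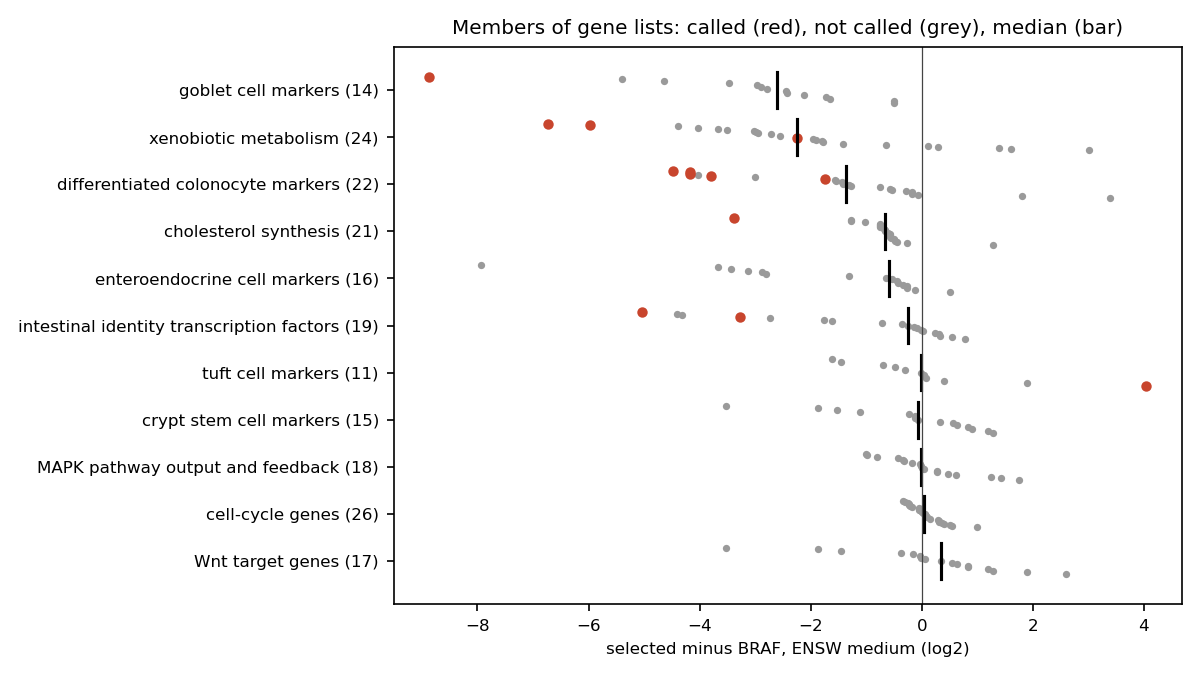
Each point is a measured member of 1 of 11 gene lists, placed by selected minus BRAF in ENSW medium (log2), red where called and grey where not, with a black bar at the list's median. Medians run from -2.61 (goblet) to 0.34 (Wnt targets), and the MAPK, cell-cycle, stem cell and Wnt lists hold no gene called without the line block.

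Called genes outside these groups included matrix, adhesion and defence genes. Tstd1, a thiosulfate sulfurtransferase, read -2.26, -2.65 and -0.71 in selected and 5.23, 4.11 and 4.22 in BRAF lines 1 to 3, and was well above background on every array. It fell by 6.39 ± 0.43 (adjusted p = 6.91e-06) and was -5.43 with normexp. Fbln1, a fibulin of the extracellular matrix, fell by 6.07 ± 1.19 (adjusted p = 0.0354) and was the 1 called gene of 19 measured in the list of genes silenced with CpG island methylation (list median -0.06). Its call ended when selected line 2 or 3, or BRAF line 1 or 3, was left out (adjusted p up to 0.148). Cdkn2a, of the same list, had a difference of -1.17 ± 0.48 (adjusted p = 0.394) and Sox17 one of -0.02.

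Itga2, the collagen-binding integrin subunit, read -7.16, -7.06 and -5.12 in selected and -1.58, -2.79 and -3.15 in BRAF lines 1 to 3. It was at least 6.75-fold lower (adjusted p = 0.00782). Clec2h, a C-type lectin of gut epithelium, was at least 20.4-fold lower (adjusted p = 4.91e-05). Hoxd4, a homeobox patterning gene, was at least 11.2-fold lower (adjusted p = 0.0264) and the 1 called gene of 22 measured Hox genes, joined by Hoxd8 with line as a block (-4.38 ± 0.84, adjusted p = 0.0324), and the call ended when selected line 2 or 3, or BRAF line 1 or 2, was left out (adjusted p up to 0.128). Among defence genes, complement factor B (Cfb) fell by 4.84 ± 0.78 (adjusted p = 0.0109), the complement inhibitor C4bp was at least 11.1-fold lower (adjusted p = 0.0119), and the acute phase gene Saa2 was at least 2.22-fold lower (adjusted p = 0.0256). C4bp was not called with normexp (adjusted p = 0.366) or with the authors' deposited values (-1.95, adjusted p = 0.146). Il22ra1, the epithelial receptor subunit for interleukin 22, fell by 2.13 ± 0.42 (adjusted p = 0.0345). A second Il22ra1 probe gave -0.26, and with the authors' deposited values the difference was -1.11 (adjusted p = 0.196), so this call depends on probe and background treatment. The calls of Cfb and Saa2 were lost without selected line 2 or 3 (and for Saa2 also line 1), that of C4bp without some 1 array (up to 0.0647, without selected line 3), and that of Il22ra1 without any 1 array (up to 0.128).

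The size and often the call of dim genes depend on the background treatment. Ugt2b34, Mep1b, Fbln1, Cfb and Mettl7b were well above background on 1 of 3 selected arrays, so their fitted falls are set against arrays mostly at background. In the authors' deposited values, without background subtraction, 11 of 37 called genes named by the rule were no longer called. Among them were Guca2b (-1.50, adjusted p = 0.308), Guca2a (-3.27, adjusted p = 0.0725), Lypd8 (-2.94, adjusted p = 0.0506), Saa2 (adjusted p = 0.488), Hoxd4 (-2.16, adjusted p = 0.136), Fbln1 (-3.59, adjusted p = 0.107) and Sgk1 (1.70, adjusted p = 0.0549). Hsd17b2 (-4.38), Mep1b (-4.23), Mettl7b (-2.96) and Itga2 (-1.51) stayed called there with smaller differences. With normexp 20 of the 37 were no longer called, among them Car1 (-3.80, adjusted p = 0.0506), Cfb (-2.19, adjusted p = 0.131) and Alox5ap (2.23, adjusted p = 0.0943). Bounds given as at least N-fold hold for the processing used here.

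Fewer genes rose. Alox5ap, the 5-lipoxygenase activating protein needed for leukotriene synthesis and a marker on the tuft cell list, read -0.40, 1.53 and -0.81 in selected and -4.31, -4.58 and -2.92 in BRAF lines 1 to 3. The groups did not overlap, and it rose by 4.04 ± 0.79 (adjusted p = 0.0345), and leaving out any array but BRAF line 3 ended the call (up to 0.136). It was the 1 called gene of 11 measured on that list, whose median was -0.0073. The summed level of the 11 markers (log2) ran from -0.18 to 1.68 in selected and from -1.53 to -0.23 in BRAF organoids. The lowest selected value (-0.18, line 3) lay close to the highest BRAF value (-0.23, line 3). Alox5ap is part of the sum, which was not computed without it, so the sum is not separate support for a rise of tuft markers. Dclk1, a kinase of tuft cells, differed by 1.89 ± 0.81 (adjusted p = 0.418). Pou2f3, the tuft cell master factor, and Trpm5, its taste channel, differed by -0.01 and -0.70 (adjusted p = 0.998 and 0.878), and Alox5, the enzyme Alox5ap serves, by -1.45 (adjusted p = 0.773).

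Nfe2l3, a bZIP factor of the NRF family, read -0.91, -1.47 and -0.62 in selected and -4.67, -6.07 and -3.06 in BRAF lines 1 to 3, and rose by 3.60 ± 0.71 (adjusted p = 0.0362). Pcdh7, a protocadherin, rose by 3.52 ± 0.61 (adjusted p = 0.0174), and a second probe was also higher in selected organoids. Both calls were lost without some 1 array (up to 0.144, without selected line 3, and 0.0868, without BRAF line 1). Rdh10, the retinol dehydrogenase that starts retinoic acid synthesis, read 2.53, 2.40 and 2.89 in selected and 0.35, 0.11 and 1.04 in BRAF lines 1 to 3. It rose by 2.11 ± 0.30 (adjusted p = 0.00354) and stayed called without any 1 array (up to 0.03). Sgk1, a kinase that raises epithelial sodium transport, rose by 2.07 ± 0.43 (adjusted p = 0.0497), and this call was lost without any 1 array (up to 0.162).

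Of lipid enzymes, Pcyt1b, an enzyme of phosphatidylcholine synthesis, rose by 2.47 ± 0.36 (adjusted p = 0.00548), and Gdpd5, a glycerophosphodiester phosphodiesterase, by 2.31 ± 0.39 (adjusted p = 0.0139). Pcyt1b was 0.35 and not called with normexp, and the Gdpd5 call ended when selected line 1 or 3, or BRAF line 1 or 2, was left out (adjusted p up to 0.0721). Ccdc141 (2.75 ± 0.54, adjusted p = 0.0369), Pdzd4 (2.04 ± 0.41, adjusted p = 0.0373) and Azgp1, a zinc-binding glycoprotein (1.69 ± 0.28, adjusted p = 0.0139), completed the 10 largest rises among genes that 1 or more selected and 1 or more BRAF arrays measured well above background, each lost without some 1 array (the highest adjusted p was 0.153 for Ccdc141 with selected line 3 left out, 0.159 for Pdzd4 with BRAF line 2 out and 0.0738 for Azgp1 with BRAF line 1 out). Of these 10 genes, Nfe2l3, Pcdh7 and Ccdc141 were well above background on 2 of 3 BRAF arrays and Pcyt1b on 1, so their fitted rises are not exact. With normexp Azgp1 (0.23, adjusted p = 0.705), Ccdc141 (0.52, adjusted p = 0.566), Pdzd4 (0.98, adjusted p = 0.0738) and Sgk1 (1.27, adjusted p = 0.147) were not called either. Gdpd5, Nfe2l3, Pcdh7 and Rdh10 stayed called there. H2-DMb1, a chaperone of MHC class II loading, had a difference of 4.06 ± 0.86 with an adjusted p of 0.0521, and of 0.0488 with line as a block.

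Aminoacyl-tRNA synthetases, which charge tRNAs with amino acids, formed a group noticed after the values were seen. Of the 20 cytosolic members 4 were called lower, Wars by 1.88 ± 0.32 (adjusted p = 0.0167), Nars by 1.39 ± 0.26 (adjusted p = 0.0279), Yars by 1.29 ± 0.26 (adjusted p = 0.0372) and Mars1 by 1.07 ± 0.19 (adjusted p = 0.0179). Over all genes tested 0.453% were called lower. The median of the 20 synthetases was -0.75, and 16 were negative. Wars read 3.43, 2.81 and 3.34 in selected and 5.50, 4.70 and 5.03 in BRAF lines 1 to 3, and Mars1 0.95, 0.81 and 0.94 against 1.85, 2.22 and 1.85, in both cases without overlap. Gars, Lars and Rars were added with line as a block (adjusted p = 0.0194, 0.0279 and 0.0393). All 4 calls were lost without some 1 array (adjusted p up to 0.0888 for Wars and 0.121 for Nars, without BRAF line 1, and 0.156 for Yars and 0.0869 for Mars1, without BRAF line 2).

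**Figure D4:**
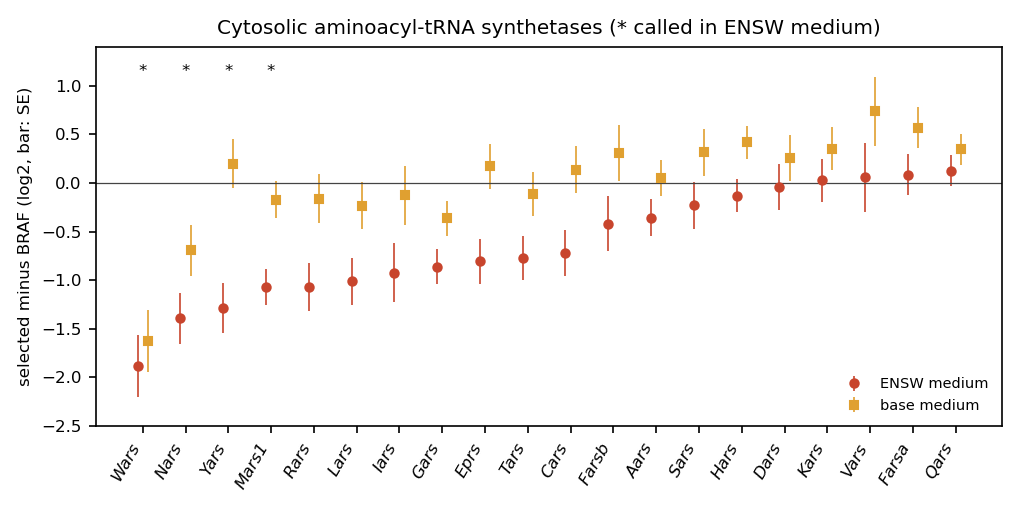
Selected minus BRAF (log2, bars are SE) for 20 cytosolic aminoacyl-tRNA synthetases in ENSW medium (red circles) and base medium (yellow squares), with stars over the 4 called in ENSW medium. The median is -0.75 in ENSW medium and 0.15 in base medium.

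Pathway output, growth and stem cell genes gave no calls without the line block. Of 18 measured MAPK output genes none was called (median -0.0081, 3 higher and 2 lower at an unadjusted p under 0.05). Dusp6, a phosphatase induced by ERK, read 4.03, 4.90 and 4.75 in selected and 4.98, 5.06 and 4.60 in BRAF lines 1 to 3, which overlapped (-0.33 ± 0.38, adjusted p = 0.842). With line as a block Dusp4, another ERK-induced phosphatase, was called higher (1.44 ± 0.31, adjusted p = 0.0481, against 0.427 without the block). Spry2 (-0.80 ± 0.30, adjusted p = 0.334) and Etv4 (0.48 ± 0.32, adjusted p = 0.672) were not called. The 26 cell-cycle genes had a median of 0.035, and Mki67 differed by 0.09 ± 0.65 (adjusted p = 0.986). These standard errors leave room for differences that 3 arrays per group did not show.

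The lists of 15 crypt stem cell and 17 Wnt target genes had medians of -0.075 and 0.34 and no call, and the selected lines differed among themselves. Lgr5, the R-spondin receptor of crypt stem cells, read 1.61, -7.57 and -1.64 in selected and 0.98, 0.40 and 1.58 in BRAF lines 1 to 3. Ascl2, a stem cell factor, read 3.29, -4.61 and -3.74 against 1.56, -1.47 and 0.46, and Axin2, a feedback target of Wnt signalling, 0.80, -2.43 and -2.83 against -1.60, -2.18 and -2.58. Selected line 1 was the highest array for Ascl2 and Axin2, and selected lines 2 and 3 were the lowest for Lgr5 and Ascl2. The differences were -3.52 ± 2.43, -1.87 ± 2.69 and 0.63 ± 1.03, none called (adjusted p = 0.684, 0.887 and 0.909). Selected line 1 also stood apart from selected lines 2 and 3 on the second principal component of all genes (46.6, -57.1 and -46.2, with 12.3% of the variance). With both arrays of selected line 1 left out, 238 genes were called, 88 of them among the 127.

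The same cultures were also profiled after 48 h in base medium. There 2117 genes were called (9.88%), 1029 higher (4.8%) and 1088 lower (5.08%), and they included 114 of the 127, all in the same direction (89.8% of the ENSW calls and 5.38% of the base calls). These arrays come from the same cultures and are not independent of the ENSW arrays. Cdhr2 differed by -2.74 ± 0.32 in base and -1.75 ± 0.32 in ENSW medium, and Rdh10 by 1.84 ± 0.30 and 2.11 ± 0.30. Of the 4 synthetases called in ENSW medium, Wars was also called in base medium (-1.63, adjusted p = 0.00713), while Nars (-0.69), Yars (0.20) and Mars1 (-0.17) were not. The test of whether the difference depends on the medium called 0 genes in limma (0%), with 1819 at an unadjusted p under 0.05. That fit counts the 2 arrays of a culture as independent, which leaves the pairing of media within cultures unused. With culture as a random block (consensus correlation 0.525), which uses the pairing, 354 genes were called, so the 0 depends on the fit. Without the block, the smallest unadjusted p was for Hsd17b2 (adjusted p = 0.287). Hsd17b2 was not well above background on any selected array in ENSW medium, so the size of its dependence on medium was not measured.

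**Figure D5:**
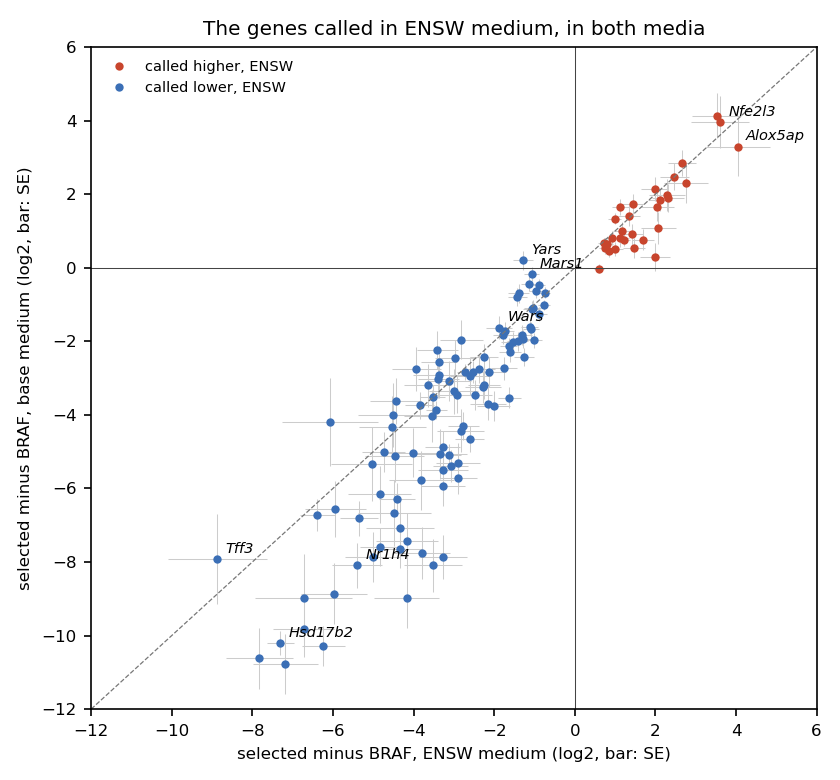
Each point is 1 of the 127 genes called in ENSW medium, with selected minus BRAF in ENSW medium on the x axis and in base medium on the y axis (log2, bars are SE, dashed line of equality). Of the 127, 125 keep their sign in base medium.

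Arrays and markers were checked as follows. Between 59.8% and 64.7% of the spots of the 6 arrays were well above background, and the arrays correlated across genes at r = 0.951 to 0.974 among selected and 0.968 to 0.975 among BRAF lines, where genes are not independent replicates. Epcam, Cdh1 and keratins 8, 18 and 19 were well above background on all 6 arrays, as was Cdx2, so the epithelial label was borne by its markers. Of other cell types, Col1a1, Col3a1, Dcn, Lum, Pdgfra, Lyz2 and Cdh5 were well above background on 0 of the 6. Col1a2, Acta2, Ptprc, Cd3e, Csf1r, Pecam1 and Sox10, which mark such cells, were well above background on all 6. The summed level (log2) of the 5 measured fibroblast markers of 15 ran from 1.22 to 2.23 in selected and 1.45 to 2.10 in BRAF organoids, that of 13 of 18 blood and endothelial markers from 5.00 to 5.26 and 5.05 to 5.27, and that of 6 of 10 neural markers from -0.60 to -0.22 and -0.48 to -0.13. None of these 3 lists held a called gene, and their part in the results was not tested. Selected lines 1 and 2 shared slide 3, selected line 3 and BRAF line 1 shared slide 4, and BRAF lines 2 and 3 lay on slides 5 and 6. With slide as a fixed term, which only that slide informs directly, 413 genes were called, 65 of them among the 127.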

How the data were processed

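Per the file headers, the authors scanned 1-colour Agilent arrays and ran Feature Extraction 10.7.3.1, and the deposited intensity used here is its background-subtracted processed signal. The authors' deposited series table holds log2 values, and the submitters' processing notes name limma. It served as an alternative. From the intensity, log2 values minus each array's 75th percentile were computed. Control spots were left out. Probes had to be well above background on 3 or more of 18 arrays, and the brightest probe stood for a gene. Of 21423 genes, 16085 had a symbol (RefSeq, GRCm38.p6). limma 3.58.1 (R 4.3.3) was fitted to the 18 arrays of EV, BRAF and selected organoids in both media, and adjusted p-values (Benjamini-Hochberg) came from that fit. The fit was tested on simulated arrays with independent errors. Of 100 genes changed by 2 log2 units 79 were recovered, and of 100 changed by 4 log2 units 90, with 7 false calls. The simulation did not include shared cultures or slides, so it does not show the error rate for the real arrays.

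Genes were named as the largest differences per direction among called genes, the largest bounds, called list members, and a set of pathway genes. Members, lists and this rule were chosen with earlier results of these data known. Line numbers are shared in the labels, and same-numbered selected and BRAF arrays deviated together only weakly (r = 0.212, 0.164 and 0.181). Across genes, selected line 2 correlated with BRAF line 3 at r = 0.962 and with BRAF line 2 at r = 0.960. That the numbers pair the samples therefore rests mainly on the labels, and the main fit does not use line. Nothing says that the lines came from separate mice. The p-values measure the spread between arrays within the groups, which may be technical, and the number of arrays limits the precision. The fit counted the 18 arrays as independent (12 residual degrees of freedom), although each culture gave 2 of them. The 2 arrays of a culture deviated together (r = 0.874, 0.813 and 0.829 for selected and 0.486, 0.662 and 0.694 for BRAF lines 1 to 3). With culture as a random block 141 genes were called, 106 of them among the 127, and 17 were called with only the 6 arrays. Alternatives covered normalization, background correction, filters, blocks, probes and arrays left out. A few genes are not reported here.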

Additional observations from a re-analysis of the deposited data

How the results depend on the processing

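The count of 127 genes stayed within 1.5 times under quantile normalization (131), median centring (141), the authors' values (123, 39 higher and 84 lower), no filter (103), a stricter filter (160), the median over probes (125), slide as a random block (134) and culture as a random block (141). It was 82 with normexp (17 higher and 65 lower, with a median over all genes of -0.11), 245 with the replicate block, 413 with slide as a fixed term, 238 without both arrays of selected line 1 (chosen after seeing the data) and 17 when only the 6 arrays were fitted, or 0 with a replicate block added to those (2146 at an unadjusted p under 0.05, also added after). Leaving out 1 array gave 45 (selected line 3) to 119 genes, with 51 without BRAF line 1, 69 without selected line 2, 78 without BRAF line 2 and 83 without selected line 1. Of the 127 calls 38 were kept without any 1 array. The replicate block lost no named call and changed 2 calls of the 127. With normexp all 5 genes called higher that were not above background in BRAF organoids changed sign, Aif1l to -0.033, D630045J12Rik to -0.065, Rab3il1 to -0.12, 5730433K22Rik to -0.097 and 6330526H18Rik to -0.078. The cause of these changes was not tested, and a fit of only the 6 arrays also has fewer residual degrees of freedom. In base medium 2117 genes became 1346 with slide as a fixed term and 853 (BRAF line 2) to 3400 (BRAF line 1) without 1 array (1274 without selected line 1, 1242 without selected line 3 and 1056 without BRAF line 3). For the dependence on medium, 0 became 354 with culture as a random block, 1 with slide as a fixed term and 0 to 1 without 1 array. Low signal over background limits falls in 25 of the 97 lower genes to bounds.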

Other observations

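Besides Tff3, the largest fall belonged to a probe that carries a transcript identifier and no symbol, ENSMUST00000160630 (chromosome 5, 137610855 to 137610914, mm9). It read -5.35, -6.95 and -7.19 in selected and 2.09, -0.52 and 2.42 in BRAF lines 1 to 3, and was at least 101-fold lower in selected organoids (limma, adjusted p = 0.000327). A probe on the same chromosome, NAP095829-001 (137626469 to 137626528), fell by 7.18 ± 0.81 (adjusted p = 0.000602). Both were chosen after their values were seen, and in both BRAF line 2 was the lowest BRAF array, as for Tff3, Guca2a and Muc2.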
